A study of Mus musculus with 12 samples.

Results

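The genes described are 10 members of the mouse Cyp2c family of cytochromes P450, out of 22180 genes that have a probe with a single gene symbol on the array. They were taken by name, with earlier results of these data known, and each was read by its brightest probe, judged by the average of all 12 arrays. All 10 had such a probe. Cyp2c44 had it under its current RefSeq symbol, Cyp2c23, which is used from here on, and Cyp2c29 and Cyp2c55 each had a second, dimmer probe. RNA came from liver, epididymal white fat and inguinal white fat, with 2 arrays per genotype and tissue and 12 in all. Mgl2-DTR mice, male and on a C57BL/6N background, carry the diphtheria toxin receptor driven by Mgl2, which encodes CD301b, a lectin of some phagocytes. The control mice were wild-type C57BL/6N males matched for age, which is not given in the sources used here. Every mouse of both genotypes was injected with 500 ng of the toxin per dose, at intervals of 3 days, and tissues were taken on day 10. The values are normalized log2 RNA levels, and a change is Mgl2-DTR minus wild-type on that scale with the standard error (SE) of a limma model over all 12 arrays. With 2 arrays per group the precision of each value is limited. The labels speak of a mouse per sample without more, so errors and p-values describe the spread between these arrays.

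Cytochromes P450 of the Cyp2c subfamily are haem enzymes of the endoplasmic reticulum that insert oxygen into drugs, steroids, retinoids and fatty acids, with electrons passed on from the reductase Por. Most mouse members are made in hepatocytes, and several convert arachidonic acid into epoxides and hydroxy acids that act as lipid signals. Their transcription in liver is known to depend on Hnf4a and on the xenobiotic receptors CAR (Nr1i3) and PXR (Nr1i2), and inflammation and the growth hormone pattern are known to alter it.

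The family lies on chromosome 19, where the RefSeq table (GRCm38.p6) places Cyp2c29, Cyp2c39, a pseudogene and Cyp2c38 in that order, then Cyp2c67, Cyp2c68, Cyp2c40 and Cyp2c69, then Cyp2c37, Cyp2c54, Cyp2c50 and Cyp2c70, with Cyp2c55 at the near end and Cyp2c23 apart at the far end. RefSeq promoters were at hand for 8 of the 10 members. The 5 printed here, each the 250 bases before the start of transcription, belong to the members whose liver levels differed most between genotypes or between arrays, with a close relative of each for comparison. Cyp2c38 (chr19:39463076-39463325 on the minus strand), Cyp2c39 (chr19:39347096-39347345 on the plus strand) and Cyp2c29 (chr19:39286835-39287084 on the plus strand) form the first set. Cyp2c40 (chr19:39812815-39813064 on the minus strand) and Cyp2c69 (chr19:39886770-39887019 on the minus strand) form the second. Capitals mark matches to TGTTTAC (FOXA), CAAAGTNCA (HNF4A) and TATAAA (the TATA box) on either strand.
Cyp2c38: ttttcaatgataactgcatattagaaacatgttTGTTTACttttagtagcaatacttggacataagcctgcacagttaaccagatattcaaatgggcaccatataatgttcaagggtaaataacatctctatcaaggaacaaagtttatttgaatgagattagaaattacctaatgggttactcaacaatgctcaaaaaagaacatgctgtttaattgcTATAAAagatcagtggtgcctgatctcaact
Cyp2c39: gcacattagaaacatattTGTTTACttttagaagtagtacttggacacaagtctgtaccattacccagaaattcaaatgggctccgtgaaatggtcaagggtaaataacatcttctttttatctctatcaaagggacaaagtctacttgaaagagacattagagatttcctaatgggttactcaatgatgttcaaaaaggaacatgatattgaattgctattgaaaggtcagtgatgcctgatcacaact
Cyp2c29: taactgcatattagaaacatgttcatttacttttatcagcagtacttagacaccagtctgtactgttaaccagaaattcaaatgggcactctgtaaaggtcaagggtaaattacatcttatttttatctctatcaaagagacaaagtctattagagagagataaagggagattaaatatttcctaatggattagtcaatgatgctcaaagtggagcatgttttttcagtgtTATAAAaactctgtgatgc
Cyp2c40: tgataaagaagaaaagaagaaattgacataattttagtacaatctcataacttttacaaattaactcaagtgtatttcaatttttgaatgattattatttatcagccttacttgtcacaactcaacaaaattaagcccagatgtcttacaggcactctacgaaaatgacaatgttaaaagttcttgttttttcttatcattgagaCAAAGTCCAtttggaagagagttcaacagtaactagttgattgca
Cyp2c69: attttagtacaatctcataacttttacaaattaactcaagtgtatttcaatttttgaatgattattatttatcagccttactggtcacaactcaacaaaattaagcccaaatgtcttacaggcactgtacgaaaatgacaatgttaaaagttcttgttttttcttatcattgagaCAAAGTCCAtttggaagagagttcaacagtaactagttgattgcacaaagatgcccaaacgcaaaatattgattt

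The promoters of Cyp2c38 and Cyp2c39 shared 75.8% of aligned bases, and those of Cyp2c29 and Cyp2c39 shared 74.1%. TGTTTAC was found 217 to 211 bases before the start of Cyp2c38 and 232 to 226 bases before that of Cyp2c39, but not in the window of Cyp2c29. These 2 of 8 members with a promoter held it, against 3.17% of 32851 RefSeq promoters of that length. The second start that RefSeq lists for Cyp2c39 also had it, in a window 71.8% identical to the first. That window (chr19:39510572-39510821 on the plus strand) lies beyond the one of Cyp2c38, so the gene order given above follows the first start. CAAAGTNCA was found in Cyp2c37, Cyp2c40, Cyp2c50 and Cyp2c70, 4 of the 8, against 1.19% of all promoters. It was also found in Cyp2c65, Cyp2c67, Cyp2c68 and Cyp2c69, and so in 8 of 13 Cyp2c genes with a promoter. Cyp2c65 lay between 2.65 and 3.52 in liver, while Cyp2c29 and Cyp2c38, both well above 5.71 there, had no match. Cyp2c40 and Cyp2c69 shared 77.5% of aligned bases, and Cyp2c37 and Cyp2c50 shared 84.3%. TTCNNNGAA (STAT5) was found in 0 of the 8 members, against 7.02% of all promoters. AGGTCA, bound by many nuclear receptors, was found in 3 of them, against 14.0% of all promoters. GTTAAT (part of the HNF1 site) and TTGCNNAA (C/EBP) were each found in 1, against 6.43% and 9.56%, and TATAAA in 4, against 12.4%. The motifs were searched on both strands, did not overlap each other in any Cyp2c promoter, and were chosen with the liver values known. A match is a description of letters and not a bound site.

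Liver and fat carried their defining markers, but 3 fat arrays also held those of epididymal duct or skeletal muscle. Hepatocyte genes in fat are described further below. The mean level of 15 hepatocyte genes was 12.20 to 12.31 in the 4 liver arrays and 5.32 to 6.59 in the 8 fat arrays, and that of 8 adipocyte genes was 6.13 to 6.38 in liver and 11.58 to 12.12 in fat. The mean of 5 epididymal duct genes was 11.87 in Mgl2-DTR epididymal replicate 2, against 3.93 to 4.10 in the other epididymal arrays. The mean of 7 skeletal muscle genes was 9.18 and 6.31 in Mgl2-DTR inguinal fat against 6.50 and 9.73 in wild-type inguinal fat. These arrays stand apart, and fat results are given with and without them. Mgl2 stood at 4.25 and 4.19 in Mgl2-DTR epididymal fat against 7.46 and 7.22 in wild-type, and at 4.12 and 4.72 in Mgl2-DTR inguinal fat against 7.07 and 7.36 in wild-type. It fell by 3.12 (SE 0.24; limma adjusted p = 0.00376) in epididymal fat of Mgl2-DTR mice and by 2.80 (SE 0.24; adjusted p = 0.00199) in inguinal fat. In liver Mgl2 stood at 4.59 and 4.03 in Mgl2-DTR mice against 4.36 and 4.12 in wild-type mice. All 4 of these values lie under 5.71, the median of all single-symbol probe values, which was used as the level below which a gene may sit at background. The liver arrays therefore give no measure of the depletion itself.

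Across tissues, 9 of the 10 members were liver genes on these arrays, with every liver array above every fat array, as were 18.3% of the 12710 genes tested. Cyp2c55 was the exception by its brighter probe, while its dimmer probe was also higher on every liver array than on every fat array. The 9 stayed between 2.25 and 5.51 in all 8 fat arrays, under the background level, so their differences between liver and fat are limited by that floor. In the comparison of wild-type liver with wild-type fat, 57.1% of genes were called, 23.2% higher in liver and 34% lower, at a limma adjusted p under 0.05. The same call fell on 9 members upward and on Cyp2c55, by its brighter probe, downward. No more is read from that count, since the members were chosen from these values.

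**Figure D1:**
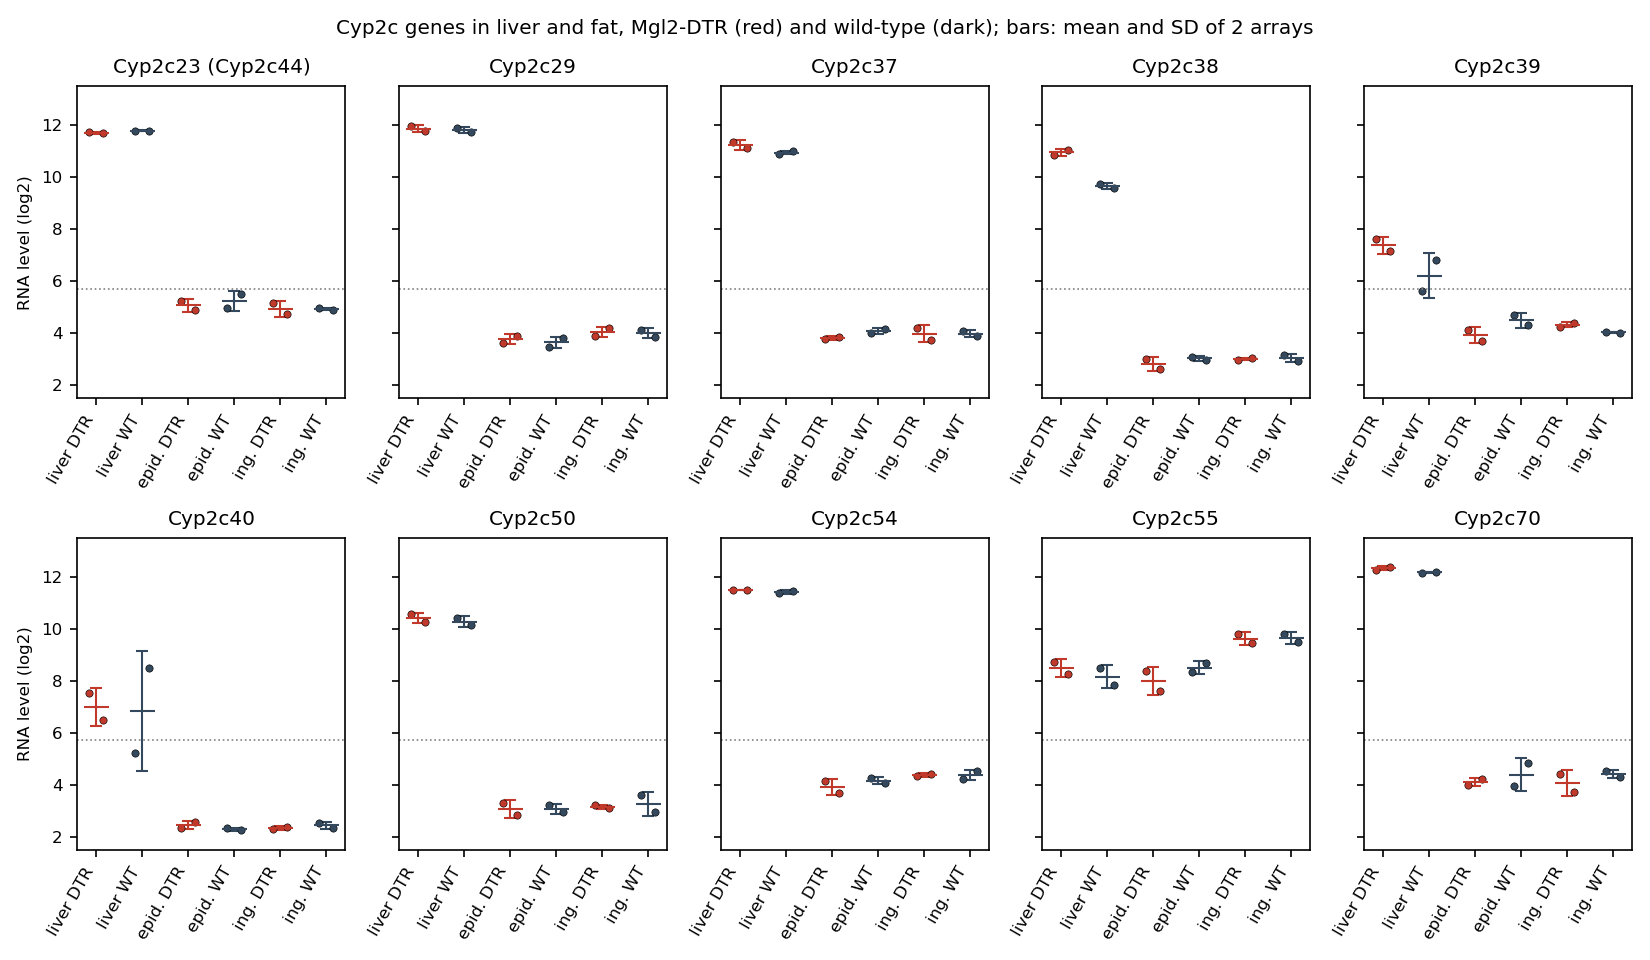
RNA level (log2) of the 10 Cyp2c genes on every array. Each panel is a gene, points are arrays, crossbars are means with the SD of 2 arrays, red is Mgl2-DTR, dark is wild-type, and the dotted line is the background level of 5.71. Liver stands above fat in all panels but Cyp2c55, and among the liver groups Cyp2c38 separates the genotypes while Cyp2c40 spreads widely in wild-type mice.

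In liver, Cyp2c38, an enzyme that oxidizes arachidonic acid, was the member that differed most between genotypes. Its level was 10.86 and 11.03 in Mgl2-DTR livers, against 9.75 and 9.59 in wild-type livers. Both Mgl2-DTR arrays thus lay more than a log2 unit above both wild-type arrays, while the arrays within a genotype lay close together. The means were 10.95 ± 0.12 in Mgl2-DTR and 9.67 ± 0.11 in wild-type liver (SD, n = 2 each), a change of 1.28 (SE 0.16), or 2.42-fold. Of the genes tested, 0.252% had a larger absolute liver change. Cyp2c38 was the only 1 of the 10 members called in liver, where 0.0708% of all genes were called, 0.0315% higher and 0.0393% lower. The call itself was narrow. It was lost in 14 of 21 alternative settings, including each of the 4 that left out a liver array and the liver arrays fitted alone. These settings are not all separate, since leaving out either array of a fat group gives the same liver fit. The change ran from 1.19 to 1.36 with a liver array left out and was 1.17 after renewed quantile normalization. Settings such as leaving out a fat array cannot alter its size.

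Cyp2c39, which is known to hydroxylate retinoic acid in mouse liver, had the next largest change. It stood at 7.60 and 7.14 in Mgl2-DTR livers, against 5.60 and 6.82 in wild-type livers. The genotypes did not overlap, but wild-type replicate 1 lay well below wild-type replicate 2 and under the background level. The change was 1.16 (SE 0.35) and was not called. Without wild-type replicate 1 it was 0.55 (SE 0.27), and without wild-type replicate 2 it was 1.77 (SE 0.27), so 1 array sets much of its size.

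Cyp2c40, an arachidonic acid hydroxylase, had the widest spread of the members in liver. Its level was 7.52 and 6.49 in Mgl2-DTR livers, against 5.21 and 8.47 in wild-type livers. Both Mgl2-DTR values lay between the wild-type ones, and wild-type liver had an SD of 2.30 (n = 2). The change of 0.17 (SE 0.80) turned to -1.46 without wild-type replicate 1 and to 1.79 without wild-type replicate 2, so no direction can be given.

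The other members of the arachidonic and linoleic acid oxidizing group differed little between genotypes in liver. Cyp2c37 stood at 11.37 and 11.11 in Mgl2-DTR livers against 10.89 and 10.99 in wild-type livers, a change of 0.30 (SE 0.18) with no overlap. With a liver array left out this ran from 0.17, without Mgl2-DTR replicate 1, to 0.43, without Mgl2-DTR replicate 2. Cyp2c50 stood at 10.55 and 10.27 in Mgl2-DTR livers against 10.41 and 10.13 in wild-type livers, with overlapping groups and a change of 0.14 (SE 0.24). Cyp2c54 stood at 11.49 and 11.48 in Mgl2-DTR livers against 11.36 and 11.46 in wild-type livers, a change of 0.08 (SE 0.17). None of these 3 changes was called. Cyp2c23, the arachidonic acid epoxygenase best known from kidney, was the only member lower in both Mgl2-DTR livers, at 11.72 and 11.68 there against 11.79 and 11.77 in wild-type livers. Its change was -0.08 (SE 0.21), smaller than its error. That SE pools the spread of all 6 groups, fat included, where the SD was up to 0.39. In liver alone the SD was 0.032 in Mgl2-DTR and 0.014 in wild-type mice (n = 2 each).

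Cyp2c29, a xenobiotic-inducible member, stood at 11.97 and 11.76 in Mgl2-DTR livers against 11.90 and 11.73 in wild-type livers, a change of 0.05 (SE 0.18) with overlapping groups. It ran from -0.05 to 0.16 with a liver array left out, so it has no settled direction. Cyp2c29 lies next to Cyp2c39 on the chromosome, by the first start of Cyp2c39, and has a related promoter without TGTTTAC. Any part of that motif in the liver levels was not tested. Cyp2c70, the mouse enzyme that hydroxylates bile acids to muricholic acids, stood at 12.26 and 12.37 in Mgl2-DTR livers against 12.15 and 12.18 in wild-type livers. The groups did not overlap, and the change was 0.15 (SE 0.29). Here too the SE pools fat, where the SD was up to 0.64, while in liver it was 0.076 in Mgl2-DTR and 0.019 in wild-type mice.

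Counted together, both Mgl2-DTR livers lay above both wild-type livers for 5 members, namely Cyp2c37, Cyp2c38, Cyp2c39, Cyp2c54 and Cyp2c70, and below them for Cyp2c23. Over all genes these shares were 19.2% and 15.2%. The median liver change was 0.16 over the 10 members and 0.01 over all 12710 genes. Apart from Cyp2c38 and Cyp2c39, no member had an absolute change over 0.33.

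**Figure D2:**
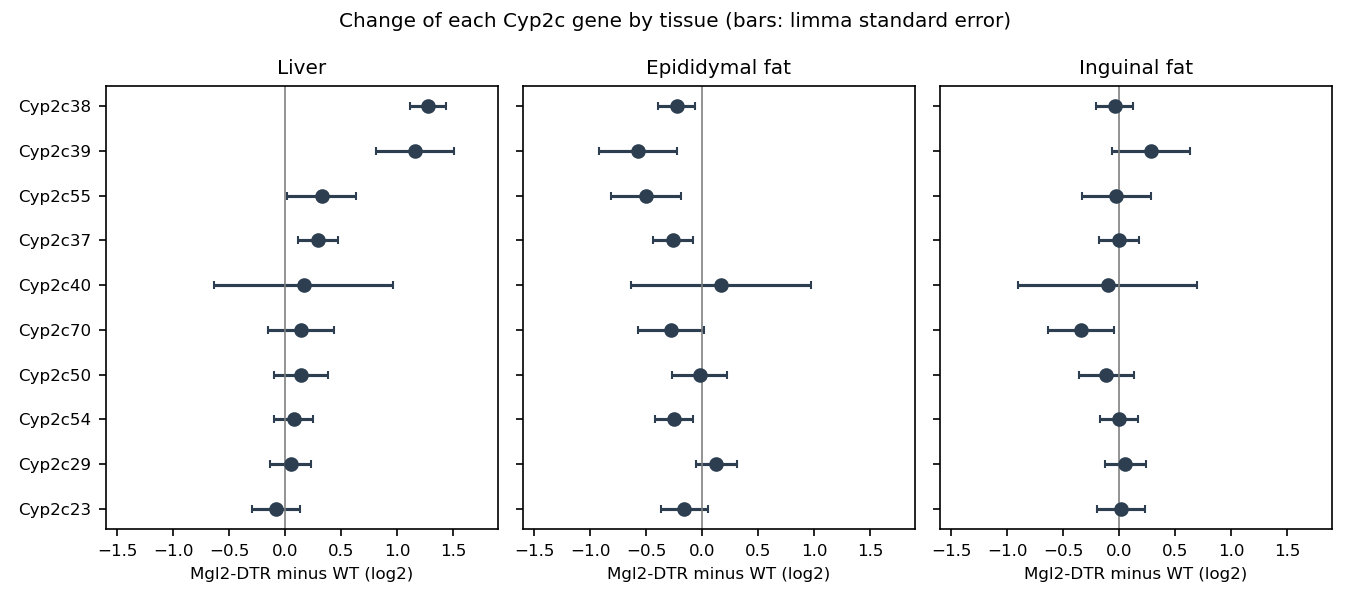
Change (Mgl2-DTR minus wild-type, log2) of each of the 10 Cyp2c genes in liver, epididymal fat and inguinal fat, with the limma SE as bars. In liver Cyp2c38 (1.28) and Cyp2c39 (1.16) stand right of the others, and the fat changes lie between -0.57 and 0.29.

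Wild-type liver replicate 1 was the lowest liver array for both Cyp2c39 and Cyp2c40, and neighbouring genes that are not members were read beside them. Cyp2c69 stood at 8.05 and 7.89 in Mgl2-DTR livers, against 5.10 and 6.81 in wild-type livers, with no overlap. Its change was 2.01 (SE 0.43; limma adjusted p = 0.346), and 1.16 (SE 0.22) without wild-type replicate 1. Without wild-type replicate 2 it was 2.87. The wild-type value left there, 5.10, is under the background level, though above the 2.61 to 3.10 that this probe read in fat. Cyp2c68 stood at 10.38 and 10.24 in Mgl2-DTR livers against 9.83 and 10.44 in wild-type livers, a change of 0.17 (SE 0.20; adjusted p = 1). Wild-type replicate 1 was the lowest liver array for these 2 genes as well, while for Cyp2c38 it was slightly above wild-type replicate 2. Of the 5 further Cyp2c genes listed, 4 had a single-symbol probe and 2, Cyp2c68 and Cyp2c69, passed the filter, each through its liver mean, and both lay under the background level in fat. By limma 0 of these 2 passed and 1 had an unadjusted p under 0.05.

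**Figure D3:**
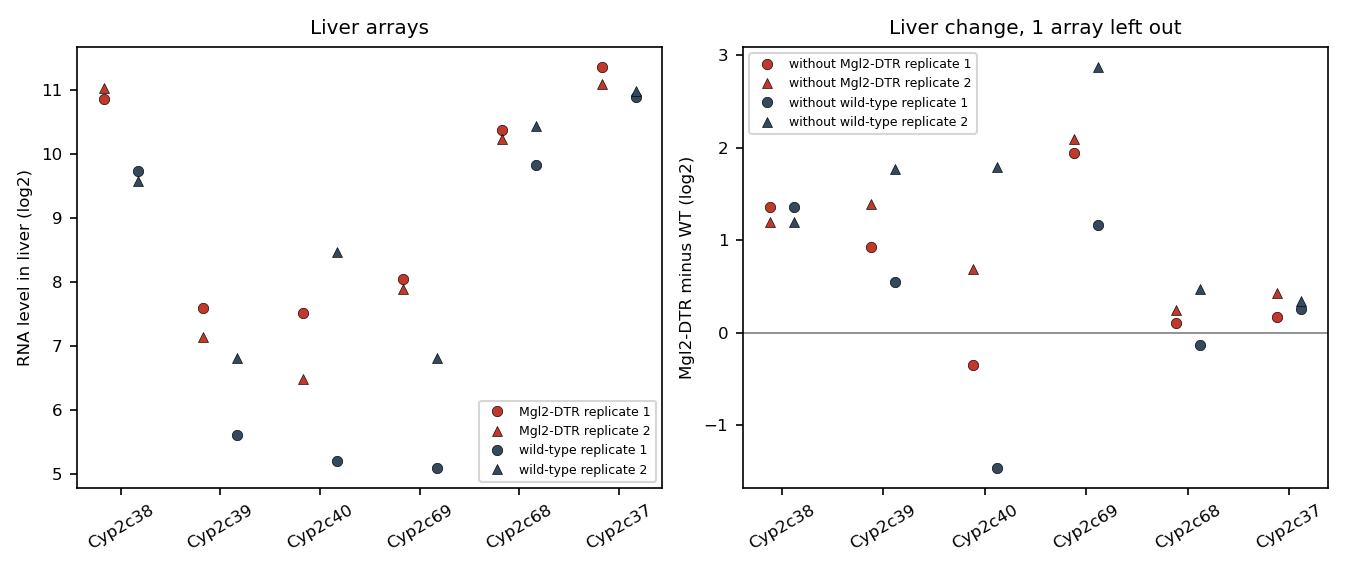
Left, log2 level of 6 Cyp2c genes in each liver array, Mgl2-DTR (red) left of wild-type (dark), circles for replicate 1 and triangles for replicate 2; levels are not comparable between genes. Right, the liver change of the same genes with 1 liver array left out, which stays between 1.19 and 1.36 for Cyp2c38 and runs from -1.46 to 1.79 for Cyp2c40.

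Paralogues this alike can be read by each other's probes, and the probe sequences were not used here, so cross-reading was not tested. One probe carries both Cyp2c67 and Cyp2c68 in the platform annotation, and it was left out. It stood at 10.82 and 10.78 in Mgl2-DTR livers against 10.77 and 11.07 in wild-type livers, a narrower spread among wild-type arrays than by the single-symbol Cyp2c68 probe.

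Cyp2c55, known for hydroxylating arachidonic acid in intestine and for induction by xenobiotics, gave different pictures by probe. Its brighter probe was highest in inguinal fat, at 9.79 and 9.45 in Mgl2-DTR mice against 9.81 and 9.48 in wild-type mice. In epididymal fat it stood at 8.38 and 7.60 in Mgl2-DTR mice against 8.31 and 8.66 in wild-type mice, and in liver at 8.72 and 8.25 in Mgl2-DTR mice against 8.47 and 7.84 in wild-type mice. The ranges of epididymal fat and liver overlapped, and those of the genotypes overlapped in each tissue. Its dimmer probe was higher in liver than in fat, at 6.91 and 6.76 in Mgl2-DTR livers against 6.68 and 7.06 in wild-type livers, and between 2.85 and 3.61 in the 8 fat arrays. The liver change was 0.33 (SE 0.31) by the brighter probe and -0.04 by the dimmer one. By the brighter probe it was 0.01 without wild-type replicate 2 and 0.64 without wild-type replicate 1. By probe number the dimmer probe comes just before those of Cyp2c65 and Cyp2c66, the next genes on the chromosome. The brighter probe comes just before that of Cyp2c38, whose promoter is on the minus strand, while the Cyp2c55 promoter is on the plus strand. Which of them reads Cyp2c55 RNA was not tested, so the pattern of the brighter probe may not be that of Cyp2c55. The second probe of Cyp2c29 stayed between 3.28 and 3.95 in liver and between 2.93 and 3.25 in fat, under the background level throughout.

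**Figure D4:**
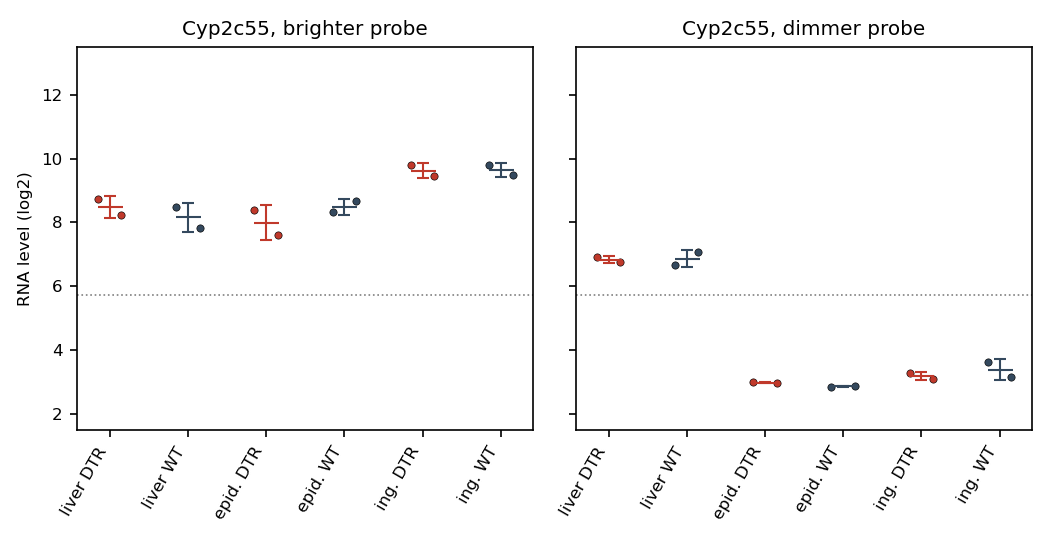
RNA level (log2) by the brighter and the dimmer probe of Cyp2c55 on every array, with means and SD of 2 arrays, Mgl2-DTR in red and wild-type in dark, and the dotted background level of 5.71. The brighter probe is highest in inguinal fat and the dimmer one is above background in liver alone.

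In fat no member was called in either depot, where 0.0315% of genes were called in epididymal fat (0% higher and 0.0315% lower) and 0.197% in inguinal fat (0.00787% higher and 0.189% lower). By limma, 0 of the 10 had an unadjusted p under 0.05 in either depot, against 6.98% of all genes in epididymal and 6.93% in inguinal fat. In epididymal fat the changes ran from -0.57 for Cyp2c39 to 0.17 for Cyp2c40, with a median of -0.24 against 0.0049 over all genes. Mgl2-DTR epididymal replicate 2 is the array with epididymal duct genes. Without it the changes ran from -0.39 for Cyp2c70 to 0.21 for Cyp2c50, with a median of -0.03 against 0.02 over all genes, and 0 were called with 0 at an unadjusted p under 0.05 by limma. In inguinal fat they ran from -0.34 for Cyp2c70 to 0.29 for Cyp2c39, with a median of -0.02 against 0.10. Of the inguinal arrays with muscle genes, leaving out Mgl2-DTR replicate 1 gave a median of -0.11 and leaving out wild-type replicate 2 a median of -0.12, with 0 called and 0 at an unadjusted p under 0.05 by limma each time. Both Mgl2-DTR arrays lay above both wild-type arrays for 1 member and below them for 2 in epididymal fat, against 14.8% and 14.7% of all genes. In inguinal fat this was 1 member above and 0 below, against 36.5% and 10.4%. Since all members but Cyp2c55, by its brighter probe, lay under the background level in fat, these differences are between values that may be background. Among the 4 fat groups, neighbours in the order of means overlapped for all members but Cyp2c39, Cyp2c54 and Cyp2c55.

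The hepatocyte genes were also read in the fat arrays, but whether these held liver RNA was not tested. Cyp2e1, a gene of that list, stood at 12.15 to 13.14 in fat and 13.21 to 13.33 in liver, so it lifts every fat mean. The mean of the hepatocyte genes was 5.45 and 5.32 in Mgl2-DTR epididymal fat against 5.35 and 6.59 in wild-type epididymal fat. Wild-type replicate 2 was the highest fat array. The means of the 4 inguinal arrays lay between 5.65 and 6.24. The same wild-type replicate 2 held the highest fat level of Cyp2c70 (4.83) and of Cyp2c23 (5.51). Both are under the background level, and the part of the hepatocyte signal in them was not tested. Without wild-type epididymal replicate 2 the epididymal change turned from -0.28 to 0.17 for Cyp2c70 and from -0.16 to 0.12 for Cyp2c23.

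The change in liver was set against the mean change of both depots in the same model. The difference was 1.41 (SE 0.20) for Cyp2c38, the only member called, where 0.236% of all genes were called, 0.181% higher and 0.0551% lower. That call was lost in 9 of 20 alternatives, with the difference between 1.30 and 1.51. These were the variance model with trend and robust fitting, and each setting that left out a liver or an inguinal array. Among the arrays that stand apart, the difference was 1.31 without Mgl2-DTR epididymal replicate 2, 1.39 without Mgl2-DTR inguinal replicate 1 and 1.47 without wild-type inguinal replicate 2. For Cyp2c39 it was 1.30 (SE 0.43), and for the other 8 it lay between -0.04 and 0.59. Cyp2c38 lay between 2.61 and 3.16 on the fat arrays, under the background level. Its difference therefore mostly restates its liver change of 1.28 and is no measure of a different response in fat. All other members but Cyp2c55, by its brighter probe, also lay under that level in fat.

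Genes of Kupffer cells, the resident macrophages of liver, had higher levels in the same livers as Cyp2c38. The mean of the 6 listed was 9.42 and 9.24 in Mgl2-DTR livers, against 8.70 and 8.46 in wild-type livers, and all 6 had a higher mean in Mgl2-DTR livers, as did 52.2% of all genes, with Marco at 1.30 (SE 0.20; limma adjusted p = 0.0863) and none called. None of the 6 lay under the background level on all 4 liver arrays. Their part in the Cyp2c38 change was not tested. The hepatocyte genes stood at 12.28 and 12.20 in Mgl2-DTR livers against 12.31 and 12.25 in wild-type livers. A change in RNA per cell cannot be told apart from a change in the share of cells in such whole tissue.

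The genes whose pattern over the 12 arrays was most like a member were found by the root mean square difference of centred log2 profiles, which is a description that shares the liver-to-fat contrast. For Cyp2c38 the nearest was Cyp3a13, another P450 (0.21), then Serpina6, which encodes corticosteroid-binding globulin (0.32), and Nat8f2 (0.34). Cyp3a13 had a liver change of 1.01 (SE 0.24; limma adjusted p = 0.381). For Cyp2c39 the nearest were Gabbr2 (0.39), the scavenger receptor Marco (0.40) and Nipal1 (0.40), for Cyp2c37 Ugt2b5 (0.20), F2 (0.20) and Pigr (0.21), and for the brighter Cyp2c55 probe the lipid synthesis genes Gpd1 (0.27) and Fasn (0.29), then Dnajc15 (0.31). The nearest gene was Slc25a47 for Cyp2c40 (0.65), Apoh for Cyp2c70 (0.25), Pigr for Cyp2c50 (0.21), Itih1 for Cyp2c23 (0.18), Cyp2d26 for Cyp2c54 (0.16) and Aldh8a1 for Cyp2c29 (0.22).

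Genes around the family were read from lists chosen with earlier results of these data known. Of 12 tested genes for electron donors and haem synthesis, limma called 0 in liver and 0 had an unadjusted p under 0.05, against 703 of all 12710 genes (5.53%). The largest changes were 0.58 for Hmox1 and -0.22 for Pgrmc1. Of 18 nuclear receptors and liver transcription factors, 0 rose, 1 fell and 5 had an unadjusted p under 0.05 by limma. The 1 that fell was Onecut1, a hepatocyte transcription factor. It stood at 7.79 and 7.23 in Mgl2-DTR livers against 9.04 and 9.84 in wild-type, a change of -1.93 (SE 0.25; adjusted p = 0.0360), a call lost in 11 of 20 alternatives. Nr1i3 (0.16), Nr1i2 (-0.20) and Hnf4a (0.13) did not pass. The list's median was -0.11, against 0.01 over all genes.

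Of 12 other targets of CAR and PXR, 0 passed and 2 had an unadjusted p under 0.05 by limma. The hepatic uptake transporter Slco1a4 had a change of 1.56 (SE 0.26; adjusted p = 0.113), which passed without Mgl2-DTR replicate 1 (adjusted p = 0.0182). Gadd45b had a change of 0.97 (SE 0.15; adjusted p = 0.0863), while Cyp2b10 was at 0.50 and Cyp3a11 at 0.14. Of 17 genes of arachidonic acid epoxides and related enzymes, 1 rose, 0 fell and 3 had an unadjusted p under 0.05 by limma. That was Cyp4a14, a fatty acid hydroxylase, with 10.74 and 10.86 in Mgl2-DTR livers against 8.69 and 9.15 in wild-type livers and a change of 1.88 (SE 0.21; adjusted p = 0.0152), while the epoxide hydrolase Ephx2 was at -0.18 and Cyp2j5 at 0.02. Of 24 other liver P450 genes, 1 rose, 0 fell and 8 had an unadjusted p under 0.05 by limma. Cyp2b9, a P450 higher in female than in male mouse liver, stood at 9.79 and 9.06 in Mgl2-DTR livers against 6.53 and 5.50 in wild-type livers, a change of 3.41 (SE 0.33; adjusted p = 0.0110). The lower wild-type value is under the background level.

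**Figure D5:**
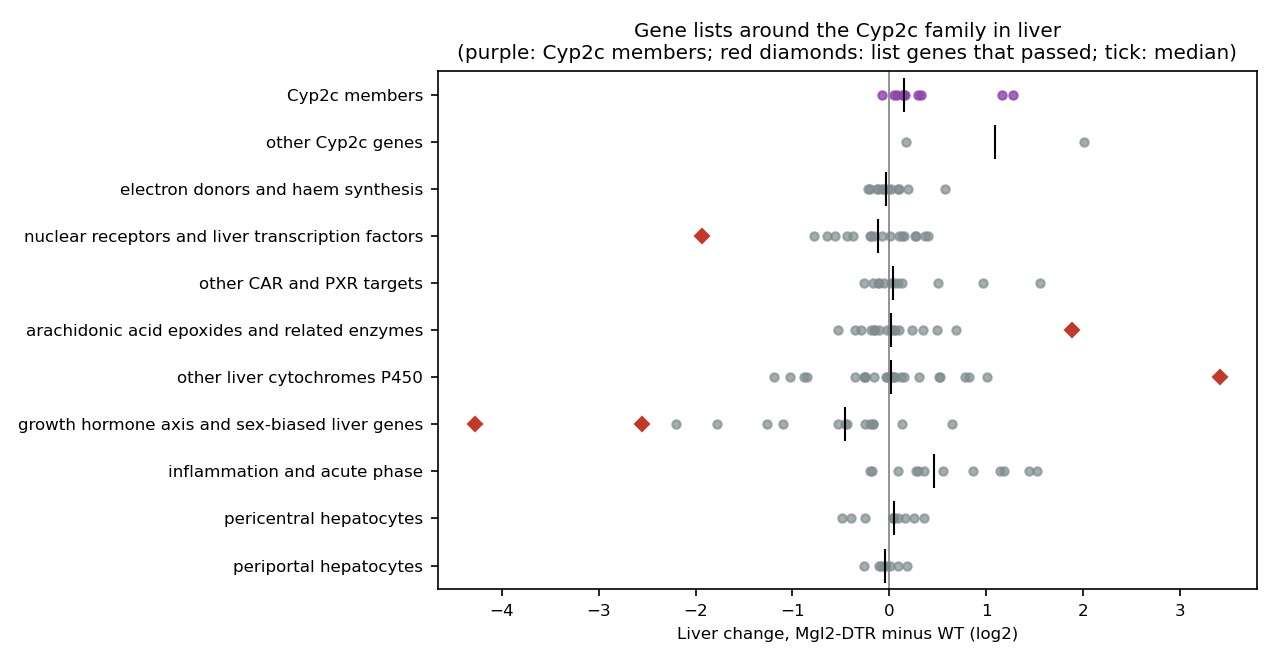
Liver change (Mgl2-DTR minus wild-type, log2) of the 10 Cyp2c members (purple) and of the genes in 10 lists around them (grey), with list genes called at a limma adjusted p under 0.05 as red diamonds and each median as a tick. The called genes are Cyp2b9 and Cyp4a14 on the right and Onecut1, Selenbp2 and Hsd3b5 on the left.

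Of 15 tested genes of the growth hormone axis and sex-biased liver expression, 13 had a lower mean in Mgl2-DTR livers, against 47.8% of all genes, 0 rose and 2 fell. By limma 6 had an unadjusted p under 0.05. Hsd3b5, a male-biased steroid dehydrogenase, stood at 6.46 and 4.12 in Mgl2-DTR livers against 9.55 and 9.59 in wild-type livers. It fell by 4.28 (SE 0.56; adjusted p = 0.0360), a call lost in 12 of 19 alternatives. The lower Mgl2-DTR value is under the background level, so the size of the fall is limited by that floor. Selenbp2, which encodes a selenium-binding protein, stood at 8.54 and 8.28 in Mgl2-DTR livers against 11.04 and 10.88 in wild-type livers, and fell by 2.56 (SE 0.22; adjusted p = 0.0103). The list's median was -0.46. Of 12 acute phase and inflammation genes, 0 passed and 1 had an unadjusted p under 0.05 by limma. Their median was 0.46, with Saa2 at 1.52 (SE 1.03) and Lcn2 at 1.44 (SE 0.81). With a liver array left out Saa2 ran from -0.52, without Mgl2-DTR replicate 2, to 3.57, without Mgl2-DTR replicate 1, and Lcn2 from 0.57 to 2.31, without the same arrays. Of 10 pericentral and 8 periportal hepatocyte genes, 0 and 0 passed, with 1 and 0 at an unadjusted p under 0.05 by limma, and the medians were 0.04 and -0.04. The largest of these were -0.49 for Rhbg and -0.40 for Axin2 among pericentral genes, and -0.26 for Cyp2f2 and 0.18 for Pck1 among periportal genes. In epididymal and inguinal fat 0 genes of any of the 10 lists passed by limma, with 0 to 3 genes per list at an unadjusted p under 0.05. Over all genes 6.98% in epididymal and 6.93% in inguinal fat had such a p by limma.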

How the data were processed

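Total RNA in Trizol was cleaned with DNase I and columns, then amplified and biotin-labelled with an Affymetrix kit (GeneChip WT PLUS), per the labels' protocols. The deposited values are log2 levels normalized by the authors, 1 column per sample, with array medians of 5.19 to 5.28 and 0 missing values. The submitters' processing notes name limma, while how probes were background-corrected and summarized is not given in the sources used here. Of 41345 probes, 23521 carry 1 gene symbol, 1814 several and 16010 none listed. These cover 22180 genes, and the brightest probe was used. RefSeq identifiers matched 23328 of these probes and changed 0 symbols.

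Genes with a mean over 5.71 in at least 1 tissue were tested (12710) with limma 3.58.1 in R 4.3.3, with 1 mean per group (6 residual and 3.35 prior degrees of freedom), two-sided, with Benjamini-Hochberg adjustment over all of them and calls at an adjusted p under 0.05. The 6 groups share 1 spread per gene. On simulated arrays the steps were tested before use. The members, lists, motifs and tests were chosen with earlier results of these data known. So members get a change and SE but no p. Named are all members, Mgl2, the called genes of each list (up to 4, or the 2 largest changes), and the nearest profiles; values of Nr1i3, Nr1i2, Hnf4a, Cyp2b10, Cyp3a11, Ephx2, Cyp2j5 and the marker genes were added after they were seen. Promoters were aligned globally with Biopython 1.88. Alternatives were other filters, probes, normalization, variance models, array weights, blocks and thresholds, the arrays of 1 tissue, and leaving out each array.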

Additional observations from a re-analysis of the deposited data

Results flagged for a closer look

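Of the members, the list genes named and Mgl2, 6 are given here because the liver change differed from the mean change of both fat depots at a limma adjusted p under 0.05. Among the members this was Cyp2c38, at 1.41 (SE 0.20), with liver higher in Mgl2-DTR mice and values under the background level in fat. Its call was lost in 9 of 20 alternatives. Cyp2b9 differed by 3.62 (SE 0.40; adjusted p = 0.0120) and Cyp4a14 by 1.98 (SE 0.25; adjusted p = 0.0163). Mgl2 differed by 3.03 (SE 0.30; adjusted p = 0.0107), with its fall in fat and values under the background level in liver. Onecut1 differed by -2.08 (SE 0.31; adjusted p = 0.0325) and Selenbp2 by -2.37 (SE 0.27; adjusted p = 0.0127).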

How the results depend on the processing

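Only 2 arrays per group and the background level limit these values. The 9 genes called in liver became 5 with a replicate block and 16 at an adjusted p under 0.10, and 3 to 14 when an array was left out. The 4 epididymal calls became 1 with no filter on dim genes, 0 with the filter at the 75th percentile (484 genes at an unadjusted p under 0.05 by limma), 1 with array weights, 0 with the epididymal arrays alone (285 genes at an unadjusted p under 0.05) and 7 at an adjusted p under 0.10. They were 0 to 763 when an array was left out, with 0 without Mgl2-DTR epididymal replicate 2 (454 at an unadjusted p under 0.05) and 763 without wild-type epididymal replicate 2. The 25 inguinal calls became 55 with array weights, 4 with the inguinal arrays alone and 6 to 38 when an array was left out. The 30 calls of liver against fat change ran from 0, without wild-type liver replicate 2 (825 at an unadjusted p under 0.05), to 244, without wild-type epididymal replicate 2. The 7262 calls of wild-type liver against fat became 4811 with the stricter filter and 3426 with a change of at least 1, and ran from 5673 to 7297 when an array was left out. The other settings kept these counts within 1.5 times. The cause was not tested.

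Replicate numbers showed no clear pairing of the arrays. The correlation across genes of replicate 2 minus replicate 1 between the genotypes was 0.08 in liver, 0.05 in epididymal and -0.13 in inguinal fat. Over all 15 pairs of groups, those across tissues included, it lay between -0.13 and 0.11. These values cannot show whether several tissues came from the same mouse, which the labels do not say. Under the replicate block Cyp2c38 was not called. Of the list genes named, Cyp2b9 was called in liver in all 20 settings run for single genes, Selenbp2 lost its call in 1, Cyp4a14 in 3 and Onecut1 in 11 of 20, and Hsd3b5 in 12 of 19. With a liver array left out the change of Cyp2c68 ran from -0.14 to 0.47 and that of Saa2 from -0.52 to 3.57, with 0 calls for either at an adjusted p under 0.05.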

Other observations

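The pseudogene Cyp2c53-ps, which was not tested because its mean lay under the background level in all tissues, stood at 4.36 and 4.06 in Mgl2-DTR livers, against 5.21 and 5.06 in wild-type livers, and between 2.70 and 3.15 in the 8 fat arrays. It lies between Cyp2c66 and Cyp2c29 in the RefSeq order, and its value in Mgl2-DTR minus wild-type liver was -0.92, opposite in sign to Cyp2c38. It was singled out after its values were seen. Cyp2c65 and Cyp2c66, better known from the gut, lay under the background level on every array, Cyp2c65 at 2.65 and 3.52 in Mgl2-DTR livers against 2.90 and 3.37 in wild-type livers, and Cyp2c66 at 2.33 and 2.73 in Mgl2-DTR livers against 2.38 and 2.79 in wild-type livers.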
